A study of Mus musculus with 3 samples.

Results

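The 8 genes described here write, maintain or oxidize DNA methylation: Dnmt1, Uhrf1, Dnmt3a, Dnmt3b, Dnmt3l, Tet1, Tet2 and Tet3. They were chosen by function, with no measured value in the rule, out of 21938 protein-coding genes of the GENCODE vM21 annotation. Earlier results of these data were known when they were chosen. Their HBO1 peaks were located at each transcription start site (TSS), in the gene body and within 50 kb. HBO1 is the histone acetyltransferase Kat7. The cells were Oct1 deficient mouse embryonic stem cells (ESCs), without the product of Pou2f1, an Oct4 paralog, and ChIP-seq comprised 2 HBO1 ChIP samples and 1 input sample of sheared chromatin that was not immunoprecipitated. All samples shared this genotype, so no comparison with Oct1-expressing cells was made. The cells were grown with LIF, 1 µM of a MEK inhibitor, 3 µM CHIR99021 and ascorbic acid, on feeder fibroblasts that were depleted 1 passage earlier, and were fixed with 1% formaldehyde. The antibody label of the second ChIP sample reads HBO2, while its title reads HBO1.

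Dnmt1 copies methylation onto newly replicated DNA, and Uhrf1 recruits it to hemimethylated CpGs. Dnmt3a and Dnmt3b methylate unmodified CpGs, and Dnmt3l is their catalytically inactive partner in germ cells and ESCs. Tet1, Tet2 and Tet3 oxidize 5-methylcytosine, which starts its removal, and use ascorbate as an aid to their iron center. In ESCs Tet1 and Tet2 are the prominent TET enzymes.

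The deposited list held 13823 HBO1 peaks, each with a fold enrichment over background and a −log10 q from the peak caller. It was taken to combine both ChIP samples, as the series holds 1 list. The values therefore carry no replicate error, and no p-values between conditions were computed. The input held 31973678 lines, 1 per aligned read end, of which 15963975 were first reads, with a median of 2 lines per 1 kb. In Pou2f1, 14 of 20 merged exons held no midpoint of an input line, and its locus held 1.13 times the input of regions of like GC. At that depth this does not tell whether an exon is deleted. The data hold no expression values, so the cell type could not be checked against markers.

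HBO1 peaks lay near a start of 6 of these genes, a count that rested in part on weak peaks and internal starts. A peak lay within 1 kb of at least 1 TSS in 6 of the 8, namely Uhrf1, Dnmt3a, Dnmt3b, Tet1, Tet2 and Tet3, while Dnmt1 and Dnmt3l had none. Among all coding genes the share was 21.7% (95% confidence interval by the exact binomial method 21.2 to 22.3%, for counting error alone). The 8 genes have 5 to 18 TSSs each, and among the 7831 coding genes with at least 5 TSSs the share was 34.9%. The count was 4 of 8 for peaks with a −log10 q of at least 5 (17.3% of coding genes), and 4 of 8 with the outermost TSS of each gene only (18.7%). A peak covered a TSS in 5 of the 8 against 10.9% of coding genes, and in 3 where −log10 q was 5 or more (9.06%) and 2 where it was 10 or more (4.8%). The peak of Tet2 stopped 100 bp short of a TSS. A peak lay in the gene body of 7 of the 8, all but Dnmt3l, against 28.2% of coding genes, and of 4 where −log10 q was 5 or more (22.3%) and 3 where it was 10 or more (9.43%). Most of the 8 are long, and among coding genes of like length to each the share ran from 26.5% for Dnmt3l to 50.9% for Dnmt3a and Tet1. All 8 had a peak within 50 kb, against 62.0% of coding genes. None of the 5 covering peaks covered the outermost TSS of its gene, the one farthest upstream, a position that was covered in 3.53% of coding genes.

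**Figure D1:**
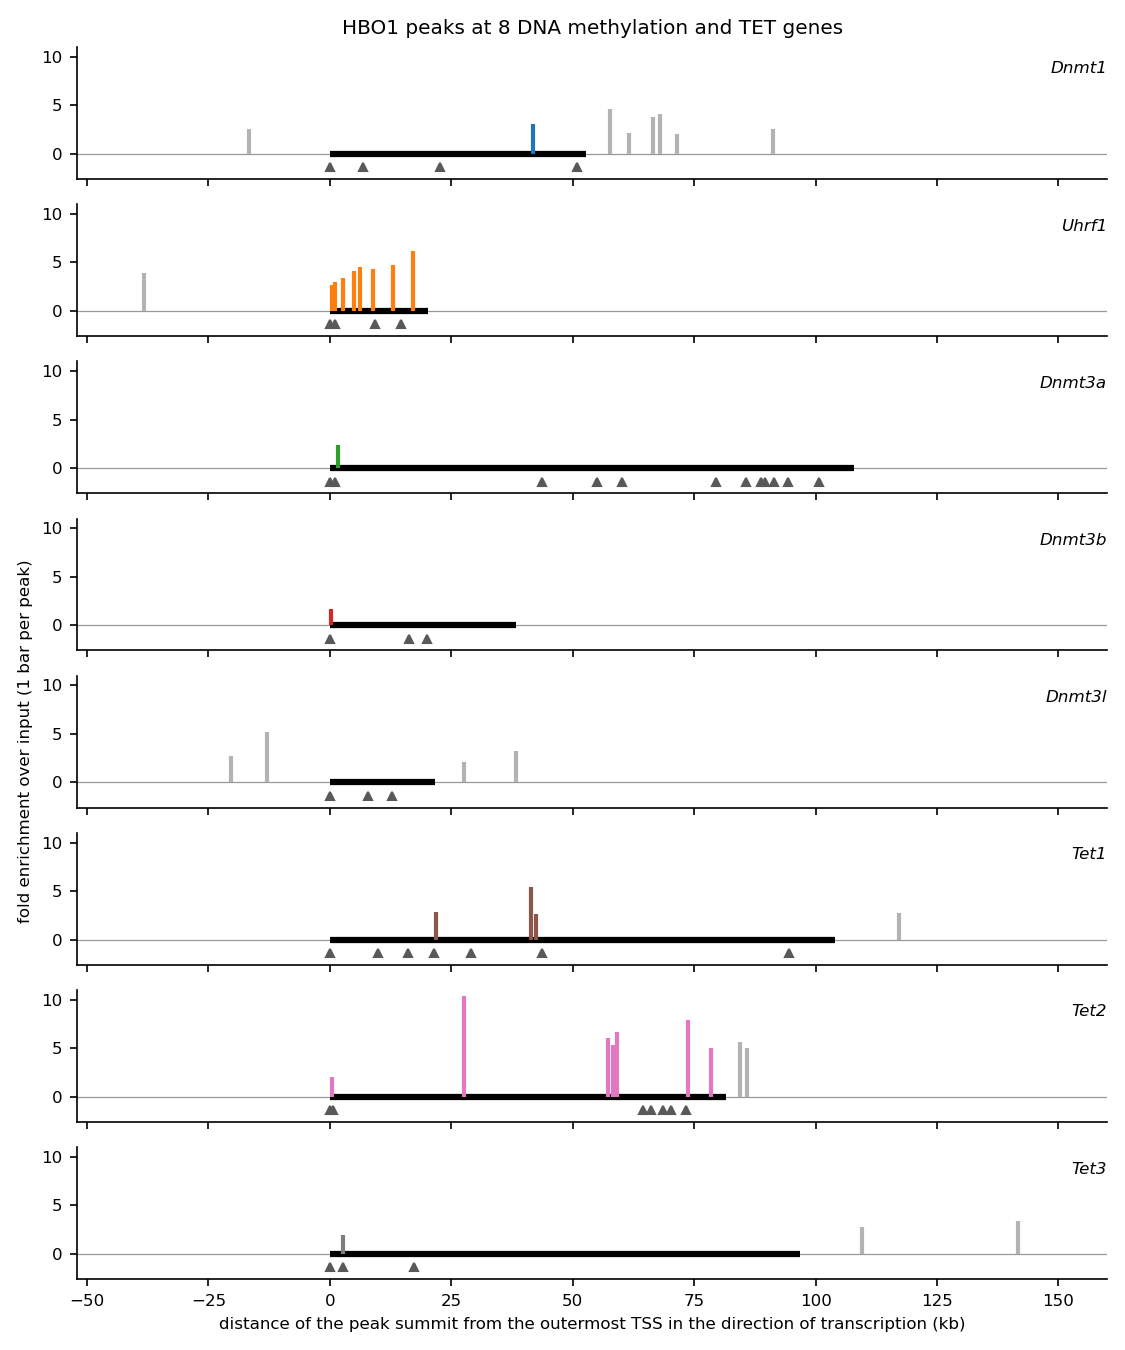
HBO1 peaks at the 8 genes. The x axis is the distance of the peak summit from the outermost TSS in kb. The y axis is fold enrichment over background, though its label reads over input. Each bar is 1 peak, colored in the gene body and grey within 50 kb of it. The black line is the gene and triangles are TSS clusters. Uhrf1 and Tet2 carry 8 and 7 peaks in their bodies, and the highest bar is the intronic Tet2 peak at 10.4.

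Stretches around peak summits and just upstream of starts are given first, as they differed in base composition. Those below lie in introns or upstream of starts in GRCm38, the assembly that mm10 names, on the strand of the gene and 5′ to 3′, with CpGs in capitals and exons left out. The first group holds the start-proximal peaks of Dnmt3a (chr12:3807545-3807744) and Tet2 (chr3:133544680-133544879), which hold 31 and 22 CpGs in 200 bases.
Dnmt3a start-proximal peak: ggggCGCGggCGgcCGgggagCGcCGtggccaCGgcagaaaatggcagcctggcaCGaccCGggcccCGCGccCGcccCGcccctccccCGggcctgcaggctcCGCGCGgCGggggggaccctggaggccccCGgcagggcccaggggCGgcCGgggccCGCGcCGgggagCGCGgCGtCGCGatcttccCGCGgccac
Tet2 start-proximal peak: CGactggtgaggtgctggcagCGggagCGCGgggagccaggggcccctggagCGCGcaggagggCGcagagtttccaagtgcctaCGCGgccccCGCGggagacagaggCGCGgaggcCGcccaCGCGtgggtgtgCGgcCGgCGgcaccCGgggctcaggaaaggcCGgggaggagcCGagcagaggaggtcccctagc
The next group holds intronic peaks away from the main starts, at Tet2 (chr3:133517406-133517605 and chr3:133471237-133471339), at Uhrf1 (chr17:56316244-56316443) and at Dnmt1 (chr9:20918043-20918115). These hold 2 to 4 CpGs each, in 73 to 200 bases.
Tet2 first intronic peak: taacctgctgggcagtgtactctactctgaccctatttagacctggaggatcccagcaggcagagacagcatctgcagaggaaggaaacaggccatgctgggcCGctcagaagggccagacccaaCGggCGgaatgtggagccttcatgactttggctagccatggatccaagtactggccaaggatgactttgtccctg
Tet2 second intronic peak: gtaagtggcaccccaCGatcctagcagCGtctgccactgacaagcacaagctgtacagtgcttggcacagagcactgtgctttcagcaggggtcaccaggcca
Uhrf1 intronic peak: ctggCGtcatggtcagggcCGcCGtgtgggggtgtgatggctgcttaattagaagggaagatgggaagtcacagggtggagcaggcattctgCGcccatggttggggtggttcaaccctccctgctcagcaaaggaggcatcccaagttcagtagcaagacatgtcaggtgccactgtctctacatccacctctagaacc
Dnmt1 intronic peak: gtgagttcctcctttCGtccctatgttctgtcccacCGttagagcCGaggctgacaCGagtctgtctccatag
The last group holds the bases just upstream of starts. Those of Dnmt3b (chr2:153649300-153649449), of Tet3 at 2.69 kb (chr6:83456393-83456542) and of Tet1 at 21.5 kb (chr10:62887513-62887662) belong to starts with a peak. Those of Dnmt1 at 6.91 kb (chr9:20952980-20953129) and of Tet3 at 17.4 kb (chr6:83441679-83441754) belong to starts without one, and distances are from the outermost TSS.
Dnmt3b start with a peak: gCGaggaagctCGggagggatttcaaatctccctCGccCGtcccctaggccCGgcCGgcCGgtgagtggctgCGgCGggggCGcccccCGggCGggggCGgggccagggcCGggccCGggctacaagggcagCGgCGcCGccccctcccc
Tet3 start with a peak: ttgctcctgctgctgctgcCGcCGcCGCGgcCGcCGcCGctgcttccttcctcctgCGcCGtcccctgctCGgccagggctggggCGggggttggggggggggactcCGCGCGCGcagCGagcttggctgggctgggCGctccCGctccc
Tet1 start with a peak: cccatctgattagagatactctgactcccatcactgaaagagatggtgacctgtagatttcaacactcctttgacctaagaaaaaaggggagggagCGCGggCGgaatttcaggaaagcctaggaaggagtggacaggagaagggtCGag
Dnmt1 start without a peak: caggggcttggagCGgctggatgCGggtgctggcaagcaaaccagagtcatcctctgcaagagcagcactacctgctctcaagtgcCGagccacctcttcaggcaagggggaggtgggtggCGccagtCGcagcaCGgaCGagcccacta
Tet3 start without a peak: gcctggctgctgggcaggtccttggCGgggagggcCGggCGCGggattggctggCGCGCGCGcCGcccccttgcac
The Tet1 start with a peak holds 4 CpGs in 150 bases, fewer than the 7 of the Dnmt1 start without one. Most of these Tet1 bases lie outside its peak, which held 20 CpGs in the 300 bp around its summit. The Dnmt3b and Tet3 starts with a peak hold 18 in 150 each, and the Tet3 start without one holds 9 in 76, a like density. The Dnmt3b bases lie wholly upstream of its peak.

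Dnmt1, the maintenance methyltransferase, lies at chr9:20907209-20959888 on the minus strand, with 7 TSSs in 4 clusters. Starts were placed in 1 cluster where each lay within 500 bp of the next. Its main cluster of coding starts, from 20952979 to 20952605, had 4 TSSs, a GC content of 59.8 to 65.2% in the surrounding 1 kb and 53 to 66 CpGs. The nearest peak lay 23354 bp away. Input there was 65 to 93 lines per kb, and windows of like GC had medians of 64 to 95, close to what this start held. The closest approach of a peak to any Dnmt1 TSS was 6634 bp. Its sole gene-body peak, chr9:20917926-20918283, had its summit in an intron, 8947 bp from the nearest, noncoding TSS at the peak edge. It was enriched 3.08-fold with a −log10 q of 3.78, which places it at rank 8666 of all peaks by fold enrichment and 12383 by −log10 q.

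Dnmt1 nonetheless sat among many peaks, which were nearer to its neighbors. A total of 8 peaks lay within 50 kb, 7 of them outside the gene, and all 7 were nearest to another coding gene. The strongest of these by −log10 q, 18.7 at fold enrichment 3.78, lay 2462 bp from Ppan, which acts in ribosome biogenesis, and another at 15.8 and 4.08 lay 859 bp from it. One more Ppan peak lay 29 bp from its start. Peaks also lay 70 bp from S1pr2, a sphingosine-1-phosphate receptor gene, 26 and 3417 bp from the translation initiation factor gene Eif3g, and on a start of A230050P20Rik.

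Uhrf1, the reader that brings Dnmt1 to replicated DNA, carried the densest peaks of the 8. It lies at chr17:56303321-56323486 on the plus strand, 20.2 kb in length, and held 8 peaks, or 39.7 per 100 kb. That count ranked 26 among all coding genes, and the density ranked 338. Of 2660 coding genes of like length, from 16.1 to 25.2 kb, 26.8% had a peak in the body and 0.113% had at least as many as Uhrf1. Neighboring summits were 0.661 to 4.14 kb apart, with a median of 2.38 kb, so the peaks were spread through the gene rather than held at its start.

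The Uhrf1 peaks near the start had the lowest fold enrichment. The intronic peak at 0.478 kb from the outermost TSS had a fold enrichment of 2.68, and the one covering starts of the second cluster, with its summit in the UTR at 1.14 kb, had 2.98. The following peaks had 3.35 at 2.68 kb, 4.12 at 5.06 kb, 4.49 at 6.20 kb, 4.31 at 8.93 kb and 4.75 at 13.0 kb. The last, in an exon at 17.2 kb (chr17:56320147-56320676), had 6.22. Fold enrichment thus rose along the gene in all steps but that from 6.20 to 8.93 kb. Input in the 1 kb around the same summits went the other way, from 135 and 84 lines at the first 2 to 35 at the next and 8 to 19 at the others. Since fold enrichment is computed over background, the part of input in this order was not tested. The −log10 q followed no such order, with 12.9 and 12.5 at the first 2 peaks, 7.22 to 10.7 at the 5 between and 14.6 at the last. The single Uhrf1 peak outside the gene lay 37885 bp upstream, between genes, and was nearer to Fem1a, with a fold enrichment of 3.91.

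Dnmt3a, a de novo methyltransferase with 18 TSSs in 12 clusters, had 1 peak, at its upstream end. The gene lies at chr12:3806007-3914443 on the plus strand. The peak, chr12:3806287-3807838, was 1552 bp wide, the widest of the 39 peaks within 50 kb of the 8 genes. It covered starts of the 2 upstream clusters, and its summit lay in an intron in DNA of 84.0% GC with 45 CpGs in 300 bp. Fold enrichment was 2.38 and −log10 q was 7.94. The other 10 clusters, 43.6 to 101 kb into the gene, had no peak within 41797 bp. One of these, the coding cluster at 3891728 and 3891744, had 62.9 to 63.0% GC, 49 to 51 CpGs and 61 input lines per kb against a median of 88 in windows of like GC, and the nearest peak lay 83890 bp away.

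Dnmt3b, the other de novo enzyme, lies at chr2:153649450-153687730 on the plus strand and had the weakest peak. The peak, chr2:153649530-153649807, covered 1 of the 4 TSSs of the upstream cluster, and its summit lay in the UTR at 0.286 kb. Its fold enrichment of 1.64 and −log10 q of 2.39 both ranked 13766 of 13823. Input around the summit was 135 lines per kb. It was lost where a −log10 q of at least 5 was required. No other peak lay within 50 kb of Dnmt3b, and its 2 internal noncoding starts were 15995 and 19563 bp away from it.

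Dnmt3l, the cofactor of the de novo enzymes, had no peak in its body, chr10:78041947-78063622 on the plus strand, and none within 12806 bp of any of its 6 TSSs. These starts had 53.8 to 56.4% GC and 13 to 19 CpGs in 1 kb, with 18 to 59 input lines. They were thus below the GC content of most starts with a peak. Of the 4 peaks within 50 kb, those upstream were nearest to Pfkl, a glycolytic enzyme gene, at 11393 bp, and to Aire, a regulator of antigen expression in the thymus, at 9117 bp, with fold enrichments of 2.68 and 5.15. The 300 bp around the summit of the first were all repeat-masked. The downstream peaks lay 87 and 6895 bp from Icosl, a costimulatory ligand gene.

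Tet1, at chr10:62804570-62908996 on the minus strand, carried its HBO1 peak at an internal start. Its outermost TSS, at 62908996, had 43.9% GC, 7 CpGs and 13 input lines, and the nearest peak lay 21459 bp away. The next 2 clusters were also without a peak, at 11581 and 5449 bp. The peak, chr10:62886126-62887537, was 1412 bp wide and covered the fourth cluster, 21.5 kb into the gene, where TSSs at 62887512 and 62887324 had 52.8 to 57.7% GC and 38 to 58 CpGs. Its fold enrichment was 2.84 and its −log10 q was 13.4. Both other body peaks were intronic, at 41.4 kb with a fold enrichment of 5.39 and 1 input line per kb, and at 42.5 kb with 2.62 and 29 lines. The second lay 964 bp from a noncoding start. Of 1269 genes of like length, 7.01% had at least 3 body peaks. The one peak outside the gene lay 103 bp from Ccar1, a regulator of the cell cycle and apoptosis.

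Tet2, at chr3:133463679-133545139 on the minus strand, had the strongest peak of the 8 genes and the second most, with 7 in the body. The intronic peak 27.6 kb from the outermost TSS, chr3:133517263-133517690, was enriched 10.4-fold, rank 64 of 13823, and its −log10 q was 36.0, rank 236. It lay 26596 bp from the nearest Tet2 TSS. The other high one, at 73.8 kb, had 7.91 and 15.3, and lay 304 bp from a noncoding start. A run of 3 peaks lay in an exon from 57.3 to 59.1 kb, with fold enrichments of 6.04, 5.29 and 6.64, and another lay in the UTR at 78.4 kb with 5.06. By contrast the start-proximal peak, chr3:133544490-133544960, had 2.02, in spite of a −log10 q of 11.9. It lay between the first and second clusters of starts. Input per kb was 278 lines there and 2 to 16 at the other 6. Downstream of the gene, 2 peaks at 2839 and 4359 bp from its end were between genes and had 5.67 and 5.01.

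The middle peak of the exonic run (chr3:133486735-133487103) held the sole octamer, ATGCAAAT, among the peaks of the 8 genes. The octamer is the element bound by Oct4 and its paralogs, and it was searched on both strands in the 300 bp around each summit. Here it lay 141 bp from the summit and on the strand opposite to the gene, so the stretch below (chr3:133487047-133487106), which is exonic and on the gene strand, shows the reverse complement in capitals.
Tet2 octamer: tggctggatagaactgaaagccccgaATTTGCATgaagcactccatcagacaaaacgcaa
An octamer was present in 1 of the 39 peaks within 50 kb of the 8 genes, or 2.56%, and in 0.405% of all peaks. MORE, a tandem of ATGCAT to which Oct4 binds as a dimer, was found with at most 1 mismatch in 0 of the 39 and in 0.0434% of all peaks, or 6 peaks. With so few sites no difference from the whole list can be read.

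Tet2 also differed from the other genes in its input. After correction for GC, its locus (the gene and 50 kb on each side) held 3.24 times the input of windows of like GC on the other autosomes (Poisson 95% interval 3.06 to 3.44, counting error only). The other 7 loci held 1.04 to 1.40 times, with Dnmt3l lowest and Tet1 highest. On the autosomes other than chromosome 3, 2 of 12452 loci of 180 kb reached the Tet2 value, and the central 95% ran from 0.609 to 1.37. The interval of Tet1, 1.31 to 1.51, spanned the upper end of this range. Tet2 lies in a 40-Mb segment of chromosome 3, from 100 to 140 Mb, where input stood at 2.37 times the level of the remaining autosomes, and its 2-Mb window of chromosome 3 stood at 2.49. Of 220 loci of 180 kb in the segment, 12 reached the Tet2 value.

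The segment was also rich in peaks. It held 749, or 18.7 per Mb against 4.87 elsewhere, with a median fold enrichment of 5.02 against 3.72. Of its 273 coding genes, 59.7% had a peak in the body, with a median of 1 and a maximum of 21, and 13 had more than Tet2. Among coding genes of like length to Tet2 anywhere, 0.814% had at least 7. By number of body peaks Tet2 ranked 40 among all 21938 coding genes. Its 7 peaks thus stood out less among the genes of the segment than among all genes. Whether the higher input of the segment raised the number or fold enrichment of the Tet2 peaks was not tested. Without Tet2 the counts were 5 of 7 genes with a peak within 1 kb of a TSS, 6 of 7 with one in the body and 30 peaks within 50 kb.

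**Figure D2:**
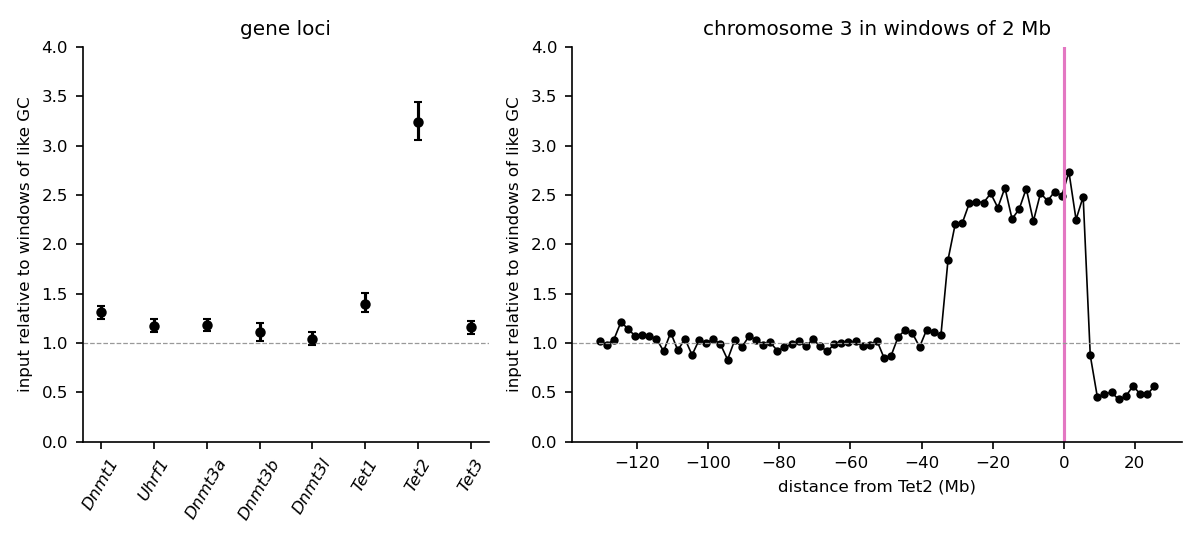
Input relative to windows of like GC. Left, the 8 gene loci with Poisson 95% intervals, where Tet2 stands at 3.24 and the others at 1.04 to 1.40; right, chromosome 3 in windows of 2 Mb by distance from Tet2 in Mb, with Tet2 inside the segment at 2.37 values of about 1 before it and values below 1 beyond it.

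Tet3, at chr6:83362373-83459084 on the minus strand, had 1 body peak, at its second start. The outermost TSS, at 83459084, had 48.9% GC and 2 input lines, and lay 2188 bp from the peak. The peak, chr6:83455955-83456896, was 942 bp wide and covered the TSS at 83456392, 2.69 kb into the gene, which had 79.0% GC and 127 CpGs. Its fold enrichment was 1.97, rank 13109, and its −log10 q was 4.48. The most internal cluster, 17.4 kb into the gene, had 64.6 to 64.8% GC, 55 to 58 CpGs and 115 to 119 input lines against a median of 95 at like GC. No peak lay within 14277 bp of it. The 2 peaks beyond the gene covered starts of Bola3, a gene for iron-sulfur cluster assembly, with 2.72, and of Mthfd2, a mitochondrial folate enzyme gene, with 3.37 and a −log10 q of 20.6.

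Across the 8 genes, 69 distinct TSSs fell into 43 clusters, of which 12 lay within 1 kb of a peak and 6 were covered. Shares of clusters over all coding genes were not computed, so the cluster counts here and below stand without a background. Starts with a peak were GC-rich. The 26 TSSs within 1 kb of a peak had a median GC of 65.3% and the other 43 had 52.6%. Of the 25 TSSs with at least 60% GC, 17 had a peak within 1 kb, against 41.1% of such TSSs of all coding genes. Of the 44 under 60%, 9 had one, against 9.37%. TSSs of 1 gene share peaks, so these are not independent.

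By clusters, each taken at its most GC-rich start, 6 of the 9 with at least 60% GC had a peak, and the 3 without were the main coding cluster of Dnmt1, the coding cluster of Dnmt3a at 85.7 kb and the most internal cluster of Tet3. Of the other 34 clusters, 6 had a peak. These were the upstream clusters of Uhrf1 and Tet2, the internal coding cluster of Tet1, and internal noncoding starts of Uhrf1, Tet1 and Tet2. The second, GC-rich cluster of Uhrf1 and of Tet2 began only 0.992 and 0.749 kb from the outermost TSS. GC content alone therefore did not separate the starts with a peak from those without in these genes. Input moved with GC as well. Starts within 1 kb of a peak had a median of 102 input lines per kb and the others 22. The 3 GC-rich clusters without a peak had 65 to 93 lines at Dnmt1, 61 at Dnmt3a and 115 to 119 at Tet3. The starts of Tet2 stood highest, at 176 to 201 lines in the second cluster.

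**Figure D3:**
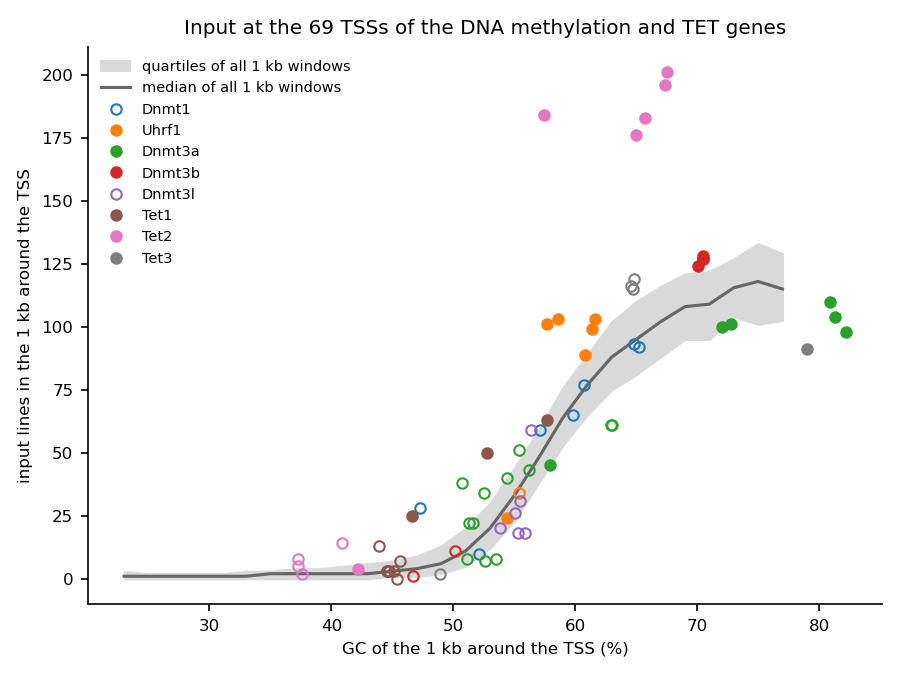
Input lines in the 1 kb around each of the 69 TSSs (y axis) against the GC content of that 1 kb in % (x axis), filled where a peak lies within 1 kb and open where none does, with the median and quartiles of all 1-kb windows in grey. The 5 upstream starts of Tet2 lie far above the grey band, at 176 to 201 lines, and open points of Dnmt1 and Tet3 lie among filled ones.

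The peaks at starts and those within the genes differed in median fold enrichment, with ranges that overlapped through peaks near internal noncoding starts. The 10 within 1 kb of a TSS of their gene had a median fold enrichment of 2.65, with a median of 90.5 input lines per kb and 65% GC. The 12 farther away had 5.17, with 13.5 lines and 55.1% GC. The −log10 q differed less, with medians of 9.92 and 8.70. In the list, the 5625 peaks within 1 kb of a TSS of any gene, coding or noncoding, had a median fold enrichment of 2.69 with 79.0 lines. The 8198 others had 4.68 with 10.0. The order was the same in the whole list. Among the peaks of these genes the ranges were 1.64 to 7.91 near a TSS and 3.08 to 10.4 farther away. Some peaks near a TSS had only an internal noncoding start within 1 kb. These were the Tet2 peak at 7.91, a Uhrf1 peak at 4.31 and a Tet1 peak at 2.62. The remaining peaks near a TSS ran from 1.64 to 2.98. Most of the 12 farther peaks belonged to Uhrf1 and Tet2. Tet2 lies in the chromosome 3 segment of high input, where all peaks had a median of 5.02. Of the 22 peaks in the genes, 11 had summits in introns, 6 in other exonic sequence and 5 in UTRs. Of the 8651 peaks of the list with a summit in a coding gene, the shares were 57.9%, 22.7% and 19.4%. In 8 of the 10 start-proximal peaks the summit lay downstream of the nearest start of the gene, as it did in 75.5% of the 5004 peaks within 1 kb of a TSS of any coding gene. Sequence at least 50% repeat-masked lay at 0 of the 22. In the whole list it lay at 3.43% of peaks within 1 kb of a TSS of any gene and 39.0% of the others, or 24.5% of all. The others include peaks between genes, whereas all 22 lie in genes, and the share for peaks in coding genes was not computed.

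**Figure D4:**
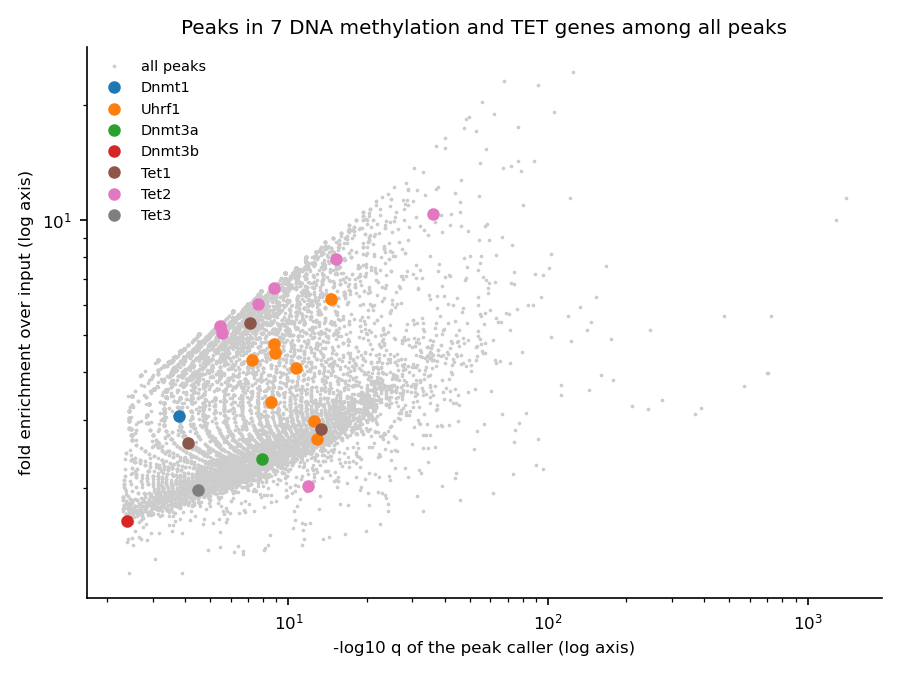
Fold enrichment over background (y axis, log, labelled as over input) against −log10 q (x axis, log). All 13823 peaks are in grey and the 22 peaks in 7 genes in color. The intronic Tet2 peak lies highest, at 10.4 and 36.0, and the Dnmt3b peak lies at the lower left, at 1.64 and 2.39.

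**Figure D5:**
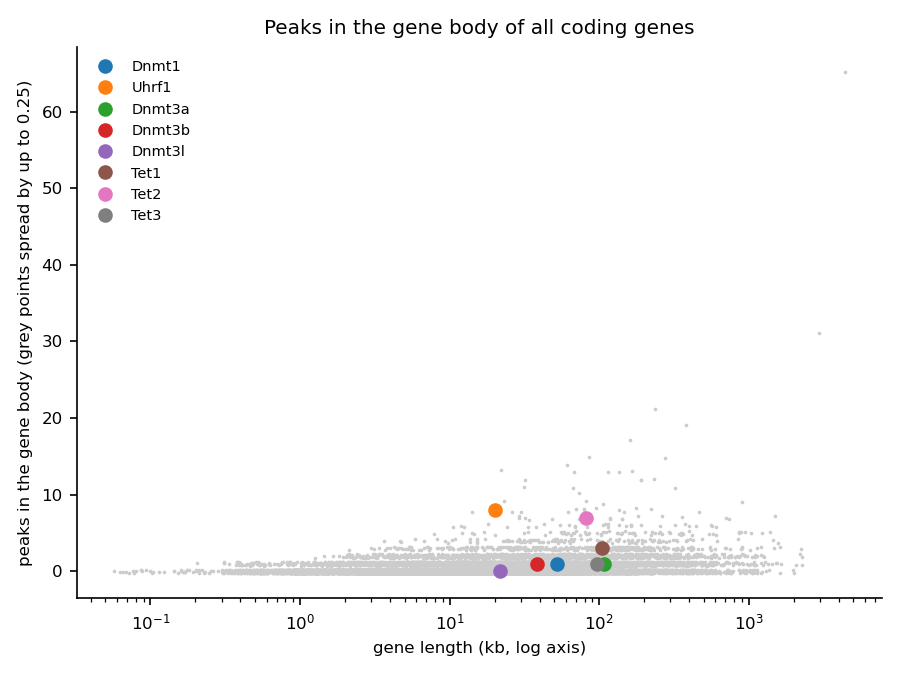
Number of peaks in the gene body (y axis) against gene length in kb (x axis, log) for all coding genes in grey, spread vertically by up to 0.25 for display, and the 8 genes in color. Uhrf1 with 8 peaks in 20.2 kb and Tet2 with 7 in 81.5 kb lie above most genes of like length, and Dnmt3l has 0.

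Other genes of the pathway were taken from a list of 44, which cover readers of methylation, partners in maintenance and in de novo methylation, oxidation and base excision repair, and supply of cofactors. The list was chosen with earlier results of these data known, so its shares are not independent support. The coding genes set beside it were not matched for number of TSSs or GC. A peak lay within 1 kb of a TSS in 21, or 47.7%, against 21.7% of coding genes, and in 12 where −log10 q was 10 or more (7.97% of coding genes). A peak covered a TSS in 15 and lay in the body of 22, where the shares of coding genes were 10.9% and 28.2%. Of the readers, 2 of 8, or 25%, had a peak near a TSS, which is close to the share of all coding genes. A covering peak lay at 1 of them, Zbtb38, a zinc-finger reader of methylated DNA (fold enrichment 3.34). Maintenance partners had 3 of 7. These were Uhrf2, the paralog of Uhrf1, at 2.63, Usp7, the deubiquitinase that stabilizes Uhrf1 and Dnmt1, at 3.05, and Hells, a chromatin remodeler needed for methylation, at 1.88. Usp7 held 5 peaks in its body.

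De novo partners and silencing factors had 6 of 10 near a TSS. Covering peaks lay at Zfp57 (3.22) and Trim28 (3.95), which protect imprinted methylation, at the H3K9 methyltransferase genes Setdb1 (2.35) and Ehmt2 (1.98), and at Nsd1 (2.71), whose H3K36 methylation recruits Dnmt3a. The oxidation and repair genes had 6 of 12, with covering peaks at Cxxc5 (3.02), Parp1 (1.93) and Gadd45a (2.94). The cofactor genes had 4 of 7. Covering peaks lay at both subunit genes of methionine adenosyltransferase, which makes the methyl donor, Mat2a (3.91, with a −log10 q of 34.4) and Mat2b (2.83), and at Idh2 (2.31), whose product supplies the 2-oxoglutarate that TET enzymes use. By −log10 q the peak at Mat2a was the highest of these 15.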

How the data were processed

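HBO1 ChIP-seq in Oct1 deficient mouse ESCs was analysed from the files the authors deposited. Per the methods, the authors used Novoalign 4.03.01 for alignment of paired reads to mm10 and called peaks with Macs2 at a q of 0.005 and max-gap 100. Whether and how the ChIP samples were combined and how duplicates were treated are not given in the sources used here. The deposited peak list holds, as the authors deposited them, the ratio of signal to background (fold enrichment), the −log10 q, a display score and a summit offset. In the deposited input, each line is the end of 1 aligned read and carries a mapping score, and nothing was normalized.

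Peaks were placed on GENCODE vM21 transcripts and GRCm38.p6 sequence with Python 3.11.15, numpy 2.4.6, pandas 2.3.3 and scipy 1.17.1, and drawn with matplotlib 3.10.9. Distances to a TSS ran from the peak edge, and were 0 where the peak covered it. Input lines were counted by midpoint in the 1 kb around a position. For relative input, lines with a mapping quality of 20 or more were set against the mean for 1-kb windows in the same 2% GC class on autosomes other than chromosome 3, over 30 to 65% GC and at most 200 lines per window. The distance, body-count and input-ratio calculations were tested on simulated data. Shares have exact binomial intervals.

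The genes and lists were chosen with earlier results of these data known. Genes named are the 8, Pou2f1, the nearest coding gene of each peak within 50 kb, and genes of the pathway list with a peak covering a TSS. The alternatives changed thresholds, distances, transcripts and input filters. Those without Tet2 were added after the data were seen. With 1 peak list and 1 input, no test between groups was made.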

Additional observations from a re-analysis of the deposited data

How the results depend on the processing

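No paired analysis was possible because there is a single peak list, taken to combine both ChIP samples. For the same reason no replicate could be left out. Peaks near the threshold decided several counts. At a −log10 q of at least 10, 3 of the 8 genes and 12 of the 44 pathway genes had a peak within 1 kb of a TSS (7.97% of coding genes), 2 had a covering peak (4.8%) and 3 a body peak (9.43%), and 13 peaks lay within 50 kb. At a −log10 q of at least 5, 4 genes had a peak within 1 kb of a TSS (17.3% of coding genes), 3 a covering peak (9.06%) and 4 a body peak (22.3%). With the outermost TSS only, 4 genes had a peak within 1 kb (18.7% of coding genes) and 0 were covered (3.53%). Counting only peaks nearest to the gene itself left 24. The median fold enrichment was 3.37 for all 39 peaks and 2.65 for the start-proximal ones. The median input at the 69 TSSs was 45 lines in windows of 1 kb and 79 in windows of 2 kb. The relative input of the Tet2 locus was 3.01 at any mapping quality, and 3.23 to 3.31 under the other alternatives. For the other 7 loci the alternatives gave 0.885 to 1.43. Leaving out Tet2 moved neither the counts of genes nor that of peaks within 50 kb by over 1.5 times. Other counts, such as peaks by place in the gene, were not recomputed without it. The input depth, a median of 2 lines per 1 kb, limits statements on single exons.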
